A study of Mus musculus with 44 samples.

Results

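The comparison covers mouse small intestinal organoids on day 3 of RANKL treatment, set against the same treatment on day 2. Its members were the 3 plates labelled RANKL day 3 and the 3 plates labelled RANKL day 2, which are 6 of the 44 plates in the series. Wells with 1000 or more UMIs (unique molecular identifiers, so that each UMI stands for one captured transcript) were kept. That left 810 cells on day 3 and 698 cells on day 2, together 1508 of 8231 cells. The organoids came from one line of one female Lgr5GFPDTR/+ mouse, an allele that places GFP and the diphtheria toxin receptor at the stem cell gene Lgr5. They had been held for 3 days with CHIR99021 (3 µM, a GSK3 inhibitor) and valproic acid (1.5 mM, a histone deacetylase inhibitor), then for 1 day in medium with EGF, Noggin and R-spondin. Both groups then received RANKL at 100 ng/mL in that medium, for 3 or 2 days. Light scatter guided the sort of single cells into 384-well plates. A modified CEL-Seq2 protocol then read the 3′ end of each captured transcript. A second arm, used here only for the same day step, received CSRM617 (40 µM), an inhibitor of the transcription factor ONECUT2, together with RANKL.

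RANKL is the ligand of RANK (Tnfrsf11a), a TNF receptor family member that signals through TRAF adaptors to canonical and noncanonical NF-κB. In the gut it is supplied by stromal cells beneath lymphoid follicles and directs epithelial progenitors to become M cells, which carry luminal antigens across the epithelium. M cell differentiation depends on the transcription factor Spib, and M cells and absorptive enterocytes arise from the same crypt progenitors. Enterocytes digest and absorb sugars, peptides, lipids and metals through brush border enzymes and transporters.

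Each plate held 261 to 278 cells on day 3 and 228 to 238 cells on day 2. The kept wells summed to 1245252 to 1501758 UMIs per plate on day 3 and 1258499 to 1502073 UMIs on day 2, with a median of 4740 to 5439 UMIs per cell on day 3 and 5436 to 6508 UMIs on day 2. One transcript, CT010467.1, took 3.02 to 10.2% of the UMIs of a plate on day 3 and 4.32 to 18% on day 2; leaving it out gave 445 called genes in place of 451. Each cell name is a plate and a well, and 0 names were shared between plates. The culture was epithelial: all 12 epithelial markers passed the filter on low counts, whereas 9 of 16 immune markers were in the table and summed to 0.693 to 2.71 CPM (counts-per-million) on day 3 and 2.82 to 4.57 CPM on day 2. Of 15 stromal and endothelial markers 11 were in the table, and they summed to 2.37 to 8.14 CPM on day 3 and 5.41 to 7.19 CPM on day 2. The markers Lyz2, Adgre1, Dcn and Kdr had 0 UMIs in all 6 plates. Whether the plates of a day hold separate cultures is not stated in the labels. The p-values therefore reflect plate-to-plate spread, and that spread may be technical only. Day of RANKL runs together with time in culture, and the medium was refreshed every 3 days without a statement of whether day 3 cells were taken before or after; these cannot be told apart.

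On day 3 the organoids held more transcripts of absorptive enterocytes and of metal-binding proteins, and fewer of a fetal-like and injury-associated group, of immediate early genes and of DNA replication, than on day 2. The tests used edgeR's quasi-likelihood method on counts summed per plate, with all RANKL plates in the fit and Benjamini-Hochberg adjustment over the 10000 genes that passed the filter on low counts. At an adjusted p under 0.05, 451 genes were called (4.51%): 265 were higher on day 3 (2.65%) and 186 were lower (1.86%). The median log2 difference over all 10000 genes was -0.01. In counts summed over a plate, fewer cells of a type and less RNA per cell cannot be told apart. Leaving out 1 plate at a time gave 220 to 387 calls, with 220 without day 3 replicate 2, 279 without day 3 replicate 3, 261 without day 2 replicate 2 and 250 without day 2 replicate 3. Lists are counted below over their tested members: 25 of 28 listed brush border genes, 22 of 26 lipid genes, 11 of 13 metal genes, 17 of 25 fetal-like genes, 9 of 12 annexins, 18 of 22 immediate early genes and 27 of 30 replication genes. Of the 10000 genes, 2356 (23.6%) had plate values that did not overlap between the days.

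Sis, which encodes the brush border disaccharidase sucrase-isomaltase (GRCm38 chr3:72888557-72967863, minus strand), had 4180.3, 4549.9 and 4496 CPM on the day 3 plates, against 1561, 950.3 and 1113 CPM on the day 2 plates. Every day 3 plate stood above every day 2 plate, a 3.65-fold difference (log2 difference 1.87 ± 0.35 (SE), edgeR adjusted p = 0.000808). The gap between the days was wider than the spread within either. The rise was also one of detection: cells with a Sis UMI made up 83.5 to 93.2% of a plate on day 3 and 56.5 to 61.3% on day 2. With each cell thinned to 1000 UMIs those shares were 52.4 to 58.6% on day 3 and 22 to 28.1% on day 2. Shares of this size also hold cells outside the enterocyte-like class described further on.

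**Figure D1:**
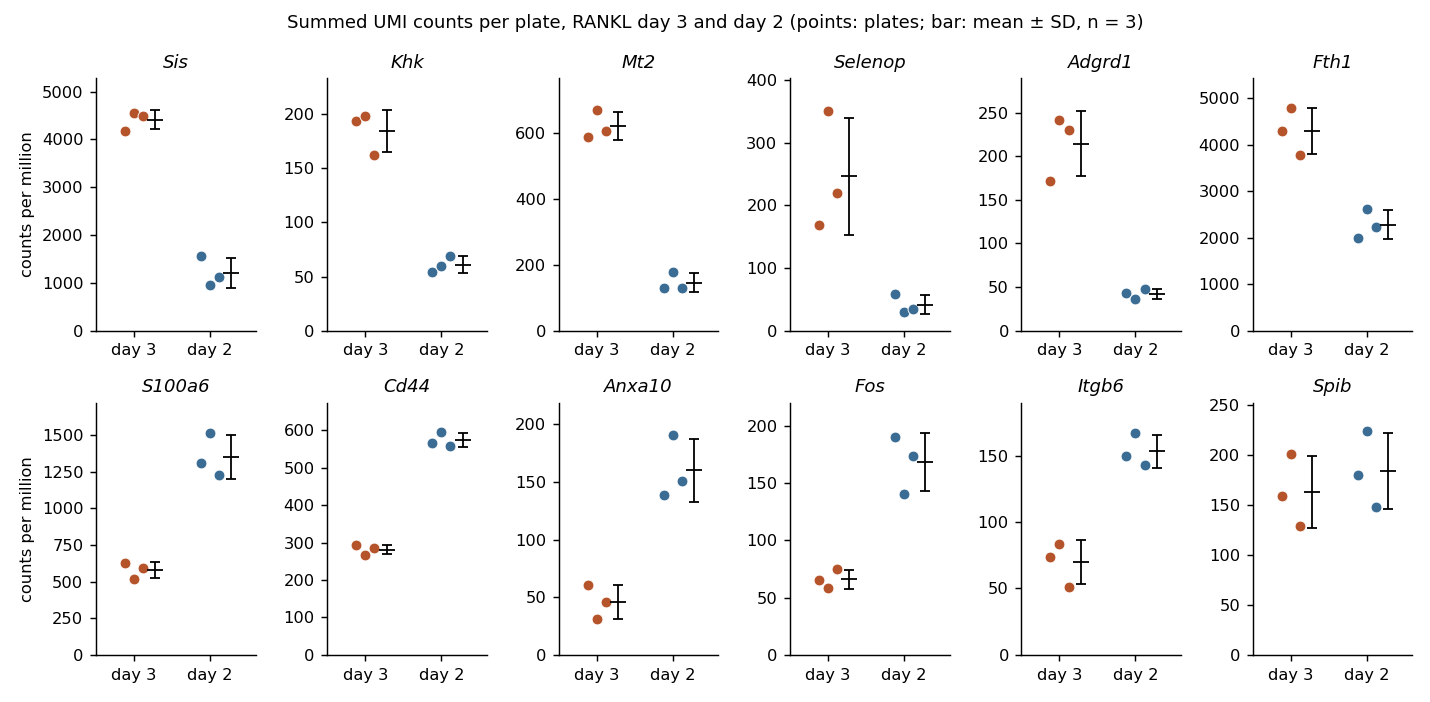
Plate values of 12 genes in counts-per-million (vertical axes, from 0) for day 3 (left, orange) and day 2 (right, blue) of RANKL; points are plates and bars give the mean ± SD of 3 plates. The first 6 genes were higher on every day 3 plate and the next 5 lower, while the Spib plates of the days overlapped (129 to 201 CPM on day 3 and 148 to 224 CPM on day 2).

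Among brush border, sugar and peptide absorption genes, 7 of the 25 tested rose and 0 fell, with a median log2 difference of 0.56 over the list. Leaving out 1 plate gave 5 to 8 rises. They included Sis. Slc2a5, the fructose transporter GLUT5, had 73.3, 86.8 and 42.3 CPM on day 3, against 27, 9.15 and 12.7 CPM on day 2. Its plates were separate (log2 difference 2.10 ± 0.43, SE), although the edgeR adjusted p of 0.00271 was not matched by DESeq2, which made no call. Khk, the kinase that commits fructose to breakdown, had 194, 198 and 162 CPM on day 3, against 54.1, 60.1 and 69 CPM on day 2. It rose 3.01-fold (log2 difference 1.59 ± 0.28 (SE), edgeR adjusted p = 0.000408). The sodium-glucose cotransporter Slc5a1 averaged 399 ± 10.5 CPM on day 3 and 157 ± 29.1 CPM on day 2 (SD, n = 3 each; log2 difference 1.36 ± 0.21 (SE), edgeR adjusted p = 9.96e-05). Mep1a, a brush border metalloprotease, and Slc7a9, a subunit of the cystine and basic amino acid transporter, rose by smaller log2 differences of 1.32 and 0.96 (edgeR adjusted p = 0.0401 and 0.0241). With single plates left out, calls were lost for Mep1a (5 of 6, up to 0.24) and Slc7a9 (5 of 6, up to 0.138), given as fits that lost the call and the highest adjusted p among them. G6pc, the glucose-6-phosphatase that releases free glucose, had 199, 177 and 165 CPM on day 3, against 52.3, 22.2 and 14.1 CPM on day 2 (log2 difference 2.66 ± 0.35 (SE), edgeR adjusted p = 9.06e-06). The 3 day 3 values were all more than 3 times the highest day 2 value.

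Lipid absorption and chylomicron genes gave 5 rises and 0 falls of 22 tested, with a median log2 difference of 0.49 and 21 of the 22 values above 0. Leaving out 1 plate gave 2 to 5 rises, with 2 without day 3 replicate 2 and 3 without day 3 replicate 3, day 2 replicate 2 or day 2 replicate 3. Abcg5, a subunit of the sterol exporter of the apical membrane, had 74.6, 100.3 and 88 CPM on day 3, against 34.2, 31.4 and 34.5 CPM on day 2 without overlap (log2 difference 1.39 ± 0.28 (SE), edgeR adjusted p = 0.00193). Its partner subunit Abcg8 differed by 1.25 ± 0.26 (SE; edgeR adjusted p = 0.00297). Tm6sf2, which acts in lipoprotein lipidation, and Mttp, the transfer protein that loads lipid onto apolipoprotein B, rose by log2 differences of 0.92 and 0.88 (edgeR adjusted p = 0.00628 and 0.0437); without day 3 replicate 2 the Tm6sf2 call was lost (adjusted p = 0.0533), and the Mttp call was lost in 4 of the 6 fits that left out a plate (up to 0.181). The apolipoprotein genes themselves varied more between plates. Apoc3 had 232, 226 and 281 CPM on day 3, against 125, 39.2 and 92.2 CPM on day 2, and its edgeR adjusted p of 0.0381 was lost in 5 of the 6 fits that left out a plate (up to 0.207) and with DESeq2. Apoa4 (1.27, adjusted p = 0.109), Apoa1 (1.07, adjusted p = 0.0748) and the fatty acid binding protein Fabp1 (0.54, adjusted p = 0.586) had log2 differences above 0 that were not called by edgeR, as did the brush border phosphatase Alpi (0.59, adjusted p = 0.312).

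Iron, zinc and other metal genes gave 6 rises and 0 falls of 11 tested, with a median log2 difference of 0.89; leaving out 1 plate gave 3 to 6 rises, with 3 without day 3 replicate 2, day 3 replicate 3 or day 2 replicate 3. The metallothioneins are small cysteine-rich proteins that bind zinc and copper. Mt2 (chr8:94172664-94173568, plus strand) had 587, 669 and 606 CPM on the day 3 plates, against 131, 178 and 129 CPM on the day 2 plates. That 4.24-fold difference came with no overlap (log2 difference 2.08 ± 0.21 (SE), edgeR adjusted p = 1.39e-07). Its neighbour Mt1 had 629, 810.0 and 714 CPM on day 3, against 249, 286 and 251 CPM on day 2. This was 2.73-fold higher, again without overlap (log2 difference 1.45 ± 0.23 (SE), edgeR adjusted p = 0.000107). The 2 genes are close in sequence, so some reads may have been assigned to the wrong one. Slc30a10, an exporter of manganese and zinc, had 27.1, 48.9 and 38.8 CPM on day 3, against 18.9, 13.1 and 21.1 CPM on day 2 (log2 difference 1.11 ± 0.33 (SE), edgeR adjusted p = 0.0447). Its call was lost in 5 of the 6 fits that left out a plate, all but that without day 3 replicate 1 (adjusted p up to 0.209).

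The transcription factor MTF1 is known to act on metallothionein promoters through metal response elements. The promoters of Mt1, Mt2 and Slc30a10, 3 of the 6 metal genes that rose, are shown. No windows were at hand for the rises Heph and Slc40a1, and those of Fth1 are not printed. The match counts of the 3 shown therefore do not describe all 6 rises. The windows run from 250 bases before to 50 after the RefSeq start (GRCm38.p6), all on the plus strand, 5′ to 3′. Capitals mark every match of the element's core, TGCGCNC or TGCACNC, on either strand. Mt1 (chr8:94178839-94179138) held 3 matches, Mt2 (chr8:94172368-94172667) held 4, and Slc30a10 (chr1:185454598-185454897) held 3, of which the first overlaps the second by all but 1 base.

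Mt1: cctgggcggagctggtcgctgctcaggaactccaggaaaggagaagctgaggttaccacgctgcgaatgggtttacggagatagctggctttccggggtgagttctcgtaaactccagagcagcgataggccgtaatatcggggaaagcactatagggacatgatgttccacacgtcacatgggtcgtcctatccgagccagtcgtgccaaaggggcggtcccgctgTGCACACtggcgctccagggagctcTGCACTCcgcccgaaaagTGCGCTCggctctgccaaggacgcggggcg
Mt2: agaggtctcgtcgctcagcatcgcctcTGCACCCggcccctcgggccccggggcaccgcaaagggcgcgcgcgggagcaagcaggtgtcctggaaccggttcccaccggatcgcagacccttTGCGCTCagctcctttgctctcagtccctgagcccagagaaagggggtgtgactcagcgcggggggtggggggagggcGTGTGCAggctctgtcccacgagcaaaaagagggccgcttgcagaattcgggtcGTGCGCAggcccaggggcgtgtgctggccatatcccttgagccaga
Slc30a10: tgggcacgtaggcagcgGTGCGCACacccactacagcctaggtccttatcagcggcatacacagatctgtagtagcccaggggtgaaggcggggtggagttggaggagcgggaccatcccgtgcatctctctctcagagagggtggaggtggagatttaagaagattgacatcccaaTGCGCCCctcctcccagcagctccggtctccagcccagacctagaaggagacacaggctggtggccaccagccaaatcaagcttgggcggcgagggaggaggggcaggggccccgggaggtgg

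In Mt1 the matches began 23 bases before the start and at 2 and 20 bases after it. In Mt2 they began 223, 128 and 50 bases before the start and 4 bases after it. The GENCODE start of Mt2 given above, 94172664, lies near the end of this window, so all 4 matches lie before that start. In Slc30a10 they began 233, 232 and 73 bases before the start. Of 32851 RefSeq windows of the same length, 25.7% held at least 1 match, 1.97% held 3 or more and 0.517% held 4 or more. Fth1, described next, held 0 matches in its 2 windows. A match is a run of letters only and does not show a bound site.

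The remaining metal rises were genes of iron storage and export. Fth1, the ferritin heavy chain, had 4305, 4787 and 3788 CPM on day 3, against 2002, 2608 and 2225 CPM on day 2. It stood 1.88-fold higher without overlap (log2 difference 0.91 ± 0.19 (SE), edgeR adjusted p = 0.00297). Slc40a1, the iron exporter ferroportin, averaged 59.5 ± 14.7 CPM on day 3 and 31.6 ± 15.4 CPM on day 2 (SD, n = 3 each; edgeR adjusted p = 0.0451). Heph, the ferroxidase hephaestin that works beside ferroportin, averaged 167 ± 15.1 CPM on day 3 and 116 ± 14.4 CPM on day 2 (SD, n = 3 each; edgeR adjusted p = 0.0418). Fits that left out a plate lost the calls of Slc40a1 (4 of 6, up to 0.279) and Heph (5 of 6, up to 0.172). The members not called were the iron importer Slc11a2 (log2 difference 0.92), the zinc exporter Slc30a1 (0.25), the ferritin light chain Ftl1 (0.11), the transferrin receptor Tfrc (0.06) and the zinc importer Slc39a4 (-0.36). Selenop, the secreted selenium carrier (chr15:3268547-3280508, plus strand), lies outside that list. It had 169, 349.8 and 220.4 CPM on day 3, against 58.6, 30.1 and 35.2 CPM on day 2, without overlap and 6.07-fold higher (log2 difference 2.60 ± 0.34 (SE), edgeR adjusted p = 6.87e-06). Cells with a Selenop UMI made up 32.8 to 41.4% of a plate on day 3 and 9.48 to 10.5% on day 2.

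Further called rises lay outside the absorption and metal lists. Dnase1, a secreted endonuclease, had 102, 171 and 98.4 CPM on day 3, against 35.1, 7.19 and 9.15 CPM on day 2 (log2 difference 2.94 ± 0.49 (SE), edgeR adjusted p = 0.000205), a call that DESeq2 did not make (adjusted p = 0.093). Akr1c14, a hydroxysteroid dehydrogenase, had 75.3, 152 and 91.5 CPM on day 3, against 21.6, 21.6 and 13.4 CPM on day 2 (log2 difference 2.49 ± 0.33 (SE), edgeR adjusted p = 9.06e-06). Adgrd1, an adhesion G protein-coupled receptor that stood in the list of mature M cell genes (chr5:129096750-129204599, plus strand), had 172, 242 and 231 CPM on day 3, against 43.3, 35.9 and 47.2 CPM on day 2. It was 5.09-fold higher on day 3 (log2 difference 2.35 ± 0.27 (SE), edgeR adjusted p = 1.14e-06). None of these 3 genes overlapped between the days. The detoxifying epoxide hydrolase Ephx1 had 114, 139.7 and 135 CPM on day 3, against 40.6, 29.4 and 26.7 CPM on day 2 (log2 difference 2.02 ± 0.26 (SE), edgeR adjusted p = 6.47e-06). With Mgst1 (0.92) and Cbr1 (0.79) it made up the 3 rises among 28 xenobiotic and antioxidant genes, where the cystine transporter Slc7a11 was the 1 fall (log2 difference -1.04). Rdh7, a retinol dehydrogenase, had 48.8, 56.1 and 52.7 CPM on day 3, against 27, 6.54 and 9.15 CPM on day 2 (log2 difference 1.96 ± 0.38 (SE), edgeR adjusted p = 0.00119). It and Dhrs3 were the 2 rises of 9 retinoid genes. In the urea cycle and arginine list 3 of 10 rose and 1 fell. Otc, the mitochondrial enzyme that makes citrulline, had 51.6, 46.6 and 55.4 CPM on day 3, against 21.6, 15.7 and 12.7 CPM on day 2 (log2 difference 1.64 ± 0.25 (SE), edgeR adjusted p = 9.96e-05). Arg2 differed by 1.37 and Aldh18a1 by 1.09, while the polyamine enzyme Odc1 differed by -0.49. With single plates left out, calls were lost for Slc7a11 (3 of 6, up to 0.167), Cbr1 (2 of 6, up to 0.0572) and Odc1 (4 of 6, up to 0.113).

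Hypoxia and glycolysis genes gave 5 rises and 1 fall of 21 tested, with 20 values above 0 and a median log2 difference of 0.32; leaving out 1 plate gave 3 to 6 rises, with 3 without day 3 replicate 2. Ndrg1, a stress- and hypoxia-responsive gene, had 272, 421 and 339.5 CPM on day 3, against 119.9, 130.1 and 106 CPM on day 2 (log2 difference 1.53 ± 0.22 (SE), edgeR adjusted p = 4.27e-05). Car9, a surface carbonic anhydrase, had 210.3, 277 and 245 CPM on day 3, against 114, 145 and 149.9 CPM on day 2 (log2 difference 0.83 ± 0.16 (SE), edgeR adjusted p = 0.000823). The growth factor Vegfa had 163, 204 and 171 CPM on day 3, against 109, 91.5 and 98.5 CPM on day 2 (log2 difference 0.85 ± 0.15 (SE), edgeR adjusted p = 0.000313). The plates of all 3 were separate between the days. The glycolytic enzymes moved less: Pfkp and Pdk1 rose by log2 differences of 0.50 and 0.52, and hexokinase Hk2 was the fall, at -0.62 (edgeR adjusted p = 0.0428). Among 9 antimicrobial genes of the lower villus, 3 rose, against 1 to 2 whichever plate was left out. Reg3g, a secreted lectin that binds bacteria, had 4647, 3933 and 4777 CPM on day 3, against 2054, 2378 and 2945 CPM on day 2 (log2 difference 0.86 ± 0.23 (SE), edgeR adjusted p = 0.0207). Reads of the Reg3 genes may be split between near-identical copies. Nlrp6, an inflammasome receptor, differed by 0.95 ± 0.18 (SE; edgeR adjusted p = 0.000755) and Ccl25, a chemokine of the small intestine, by 0.59, a call lost whenever any plate was left out (adjusted p up to 0.159). The calls of Pfkp (5 of 6, up to 0.17), Pdk1 (2 of 6, up to 0.0698), Hk2 (5 of 6, up to 0.226) and Reg3g (4 of 6, up to 0.117) were lost in some of these fits. Of 17 villus tip genes 1 rose and 2 fell.

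**Figure D2:**
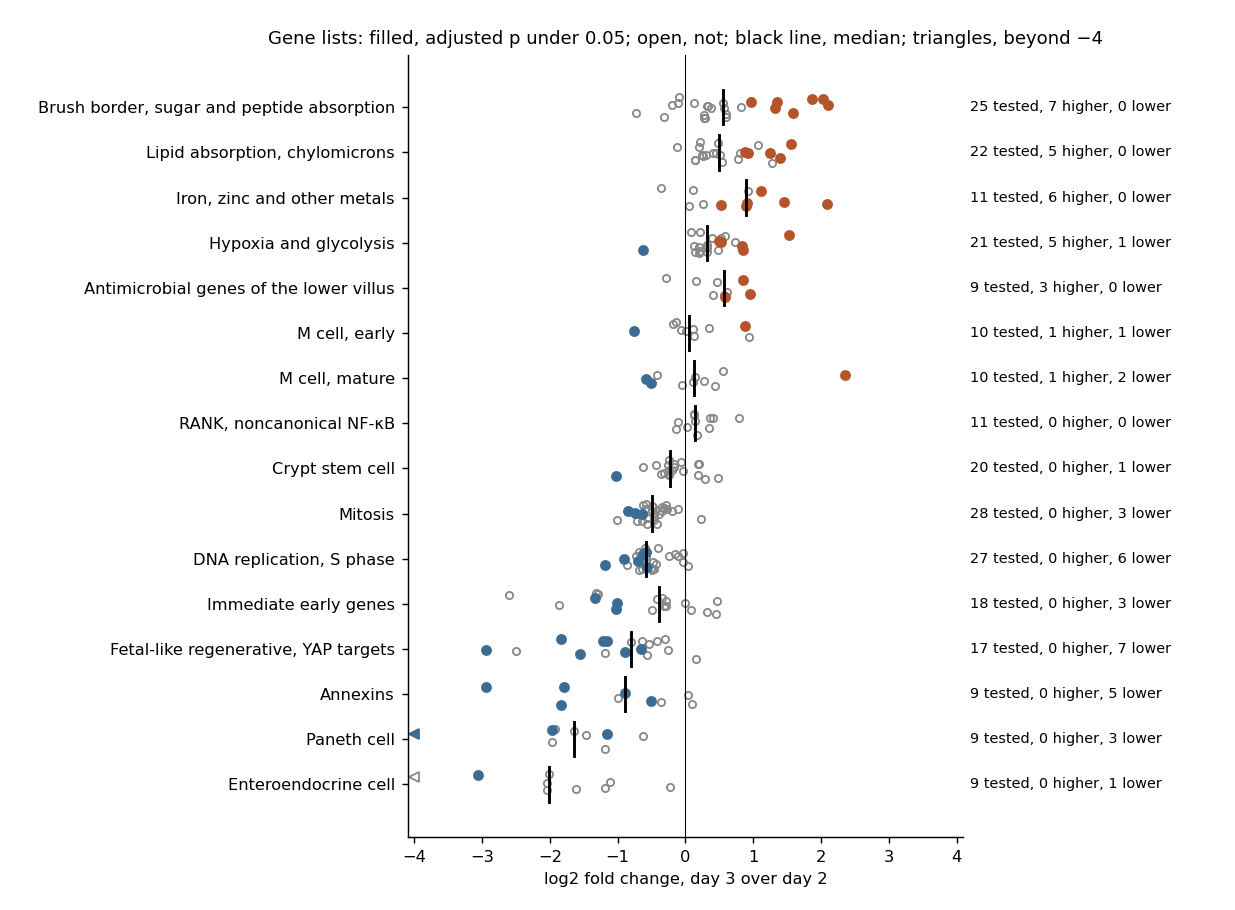
Log2 difference, day 3 over day 2 (horizontal axis), of each tested gene in 16 lists (rows); filled points passed an edgeR adjusted p of 0.05, open points did not, black lines are list medians and triangles lie below -4. Sugar, lipid and metal lists hold rises and 0 falls, and the fetal-like, annexin, replication and immediate early lists hold falls and 0 rises.

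The fetal-like and YAP target genes, a group that marks fetal epithelium and epithelium under repair, gave 7 falls and 0 rises of 17 tested, with a median log2 difference of -0.80. Of the 17 values 16 were below 0, and leaving out 1 plate gave 3 to 7 falls, with 3 without day 3 replicate 2, day 3 replicate 3 or day 2 replicate 2. S100a6, a calcium-binding protein (chr3:90612882-90624181, plus strand), had 629.6, 519 and 593 CPM on the day 3 plates, against 1310.3, 1514 and 1225 CPM on the day 2 plates. It was 2.32-fold lower on day 3, with no overlap (log2 difference -1.22 ± 0.13 (SE), edgeR adjusted p = 5.44e-07). S100a6 was detected in 67.0 to 76.0% of day 3 cells and 85.1 to 92.4% of day 2 cells, and in 32.6 to 43.5% and 50.4 to 65.5% after thinning to 1000 UMIs. Clu, the clusterin gene of revival stem cells, had 32.6, 26.8 and 14.6 CPM on day 3, against 43.3, 76.5 and 42.9 CPM on day 2 (log2 difference -1.15 ± 0.29 (SE), edgeR adjusted p = 0.0164). The log2 differences of Ly6a (-1.56) and Krt7 (-0.65) also passed, and Edn1, at 0.16, was the 1 member above 0 and was not called. Annexins, which bind membranes in a calcium-dependent way, gave 5 falls and 0 rises of 9 tested, 3 of them also in the fetal-like list; 3 fell without day 3 replicate 3 or day 2 replicate 2. Anxa10 (chr8:62057042-62123150, minus strand) had 61.1, 31.6 and 45.7 CPM on day 3, against 139, 191 and 151 CPM on day 2 (log2 difference -1.79 ± 0.29 (SE), edgeR adjusted p = 0.000132). Anxa3 had 23.7, 11.1 and 14.6 CPM on day 3, against 51.4, 94.1 and 31.7 CPM on day 2 (log2 difference -1.83 ± 0.31 (SE), edgeR adjusted p = 0.000262). Anxa2 had 559, 519 and 525 CPM on day 3, against 916, 1145 and 916 CPM on day 2 (log2 difference -0.89 ± 0.14 (SE), edgeR adjusted p = 0.000111). The plates of these 3 annexins did not overlap. Anxa1 was called at -2.94 and Anxa5 at -0.50; with single plates left out, calls were lost for Clu (3 of 6, up to 0.2), Ly6a (3 of 6, up to 0.128), Krt7 (4 of 6, up to 0.265), Anxa1 (4 of 6, up to 0.0749) and Anxa5 (3 of 6, up to 0.147).

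Some genes of surface proteins fell and others rose. Cd44, a hyaluronan receptor of crypt cells and the 1 fall of 20 stem cell genes, had 292, 267 and 285 CPM on day 3, against 567, 596 and 559.6 CPM on day 2 (log2 difference -1.03 ± 0.12 (SE), edgeR adjusted p = 1.14e-06), with a gap between the days wider than the spread within either. Itgb6, the β6 subunit of an integrin that activates TGFβ, had 73.9, 83.7 and 51.3 CPM on day 3, against 149.6, 167 and 143 CPM on day 2 (log2 difference -1.14 ± 0.18 (SE), edgeR adjusted p = 0.000107). The TGFβ-responsive gene Pmepa1 differed by -1.28 ± 0.23 (SE; edgeR adjusted p = 0.000584). Tnfrsf12a, the TWEAK receptor, differed by -1.30 (edgeR adjusted p = 0.0015). Hbegf, an EGF receptor ligand, had 28.5, 15 and 19.4 CPM on day 3, against 59.5, 39.2 and 51.4 CPM on day 2 (log2 difference -1.22 ± 0.25 (SE), edgeR adjusted p = 0.00237). The receptor Erbb3 rose by a log2 difference of 0.75 (edgeR adjusted p = 0.00218). Among claudins and tight junction genes Cldn4 fell (-1.30), as did Cldn2 (-0.57), and Cldn15 rose (0.82). Of 7 keratins 3 fell: Krt18 (-0.87), Krt23 (-1.11) and Krt7, against 1 to 2 whichever plate was left out. The Cldn4 call was lost without day 2 replicate 2 (adjusted p = 0.16), and other calls lost with single plates left out were Cldn2 (6 of 6, up to 0.18) and Krt23 (4 of 6, up to 0.16).

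Immediate early genes, which respond within minutes to growth factors and stress, gave 3 falls and 0 rises of 18 tested, with a median log2 difference of -0.38 and 3 falls whichever plate was left out. Fos had 65.1, 58.4 and 74.8 CPM on the day 3 plates, against 190.1, 141 and 173 CPM on the day 2 plates (log2 difference -1.34 ± 0.25 (SE), edgeR adjusted p = 0.000813). Jun had 107, 75.8 and 87.3 CPM on day 3, against 194, 176 and 182 CPM on day 2 (log2 difference -1.03 ± 0.18 (SE), edgeR adjusted p = 0.000437). Egr1 had 86.2, 75.8 and 88.7 CPM on day 3, against 149.6, 167 and 189 CPM on day 2 (log2 difference -1.01 ± 0.19 (SE), edgeR adjusted p = 0.000765). For all 3 the highest day 3 plate lay below the lowest day 2 plate. Fos was detected in 14.9 to 18.1% of day 3 cells and 32.9 to 42.0% of day 2 cells. DNA replication and S phase genes gave 6 falls of 27 tested (median -0.58; 1 fall without day 2 replicate 1 and 4 to 5 without any other plate) and mitosis genes 3 of 28 (median -0.49), and in each list 1 value was above 0. The mitosis falls numbered 0 without day 3 replicate 2 or day 2 replicate 3, and 5 without day 2 replicate 1. Clspn, a replication checkpoint adaptor, differed by -1.19 ± 0.29 (SE; edgeR adjusted p = 0.0133), the helicase subunit Mcm3 by -0.90 ± 0.19 (adjusted p = 0.0026) and the nucleotide reductase subunit Rrm2 by -0.70. The proliferation marker Mki67 differed by -0.31 and was not called (edgeR adjusted p = 0.532). Of 26 interferon response genes 3 fell, Oasl2 (-1.04), Ifi27l2b (-0.69) and Ifitm3 (-0.66), and 0 rose; 5 fell without day 3 replicate 2. Fits without single plates lost the calls of Clspn (2 of 6, up to 0.124), Rrm2 (3 of 6, up to 0.0709) and Oasl2 (4 of 6, up to 0.169).

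Several secretory lineage genes were few in UMIs or variable between plates. All 9 tested Paneth cell genes had values below 0 (median -1.64) and 3 fell. That count was 1 without day 2 replicate 3, 2 without day 3 replicate 2 or 3, and 6 without day 3 replicate 1. Itln1, an intelectin that binds microbial sugars, had 167, 43.4 and 64.4 CPM on day 3, against 234, 269 and 584 CPM on day 2 (log2 difference -1.97 ± 0.41 (SE), edgeR adjusted p = 0.00297). Its call was lost without day 2 replicate 3, the plate with the highest value (adjusted p = 0.0709). Mmp7, the protease that activates Paneth cell defensins, had 161, 137 and 129 CPM on day 3, against 236, 287 and 431 CPM on day 2 (log2 difference -1.16 ± 0.22 (SE), edgeR adjusted p = 0.000921). In the classes described further on it was lower in M cell-like cells and in the neither class (-1.15 and -1.15, edgeR adjusted p = 0.00084 and 0.00955). Its value in enterocyte-like cells was 0.27 and was not called (adjusted p = 0.828). Mptx2, a mucosal pentraxin, had 3 UMIs on day 3 and 271 UMIs on day 2, a ratio of 0.0107 with a counting interval of 0.0022 to 0.0317, and its plates overlapped. Lyz1 (-1.97, edgeR adjusted p = 0.32) and the goblet mucin Muc2 (0.15, adjusted p = 0.966) were not called. Spink4 was the 1 fall of 12 goblet genes (-2.55, adjusted p = 0.0112) and Chgb the 1 fall of 9 enteroendocrine genes (-3.05, adjusted p = 0.0448). Tuft cell genes gave 0 calls of 10 by edgeR, or 2 rises without day 3 replicate 3, with a median log2 difference of 1.08. A low-count rise was Eda2r, a TNF receptor family member, with 32 UMIs on day 3 and 1 UMI on day 2 (ratio 31.1, counting interval 5.19 to 1265). It was called in 11 of the 12 alternative fits that tested it, all but that without day 2 replicate 2. With the 6 plates alone, with the replicate block and with thinned cells it was not tested. Calls lost with single plates left out were Mptx2 (3 of 6, up to 0.344), Spink4 (3 of 6, up to 0.183) and Chgb (5 of 6, up to 0.195).

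None of the 11 tested RANK and noncanonical NF-κB genes was called by edgeR, and their median log2 difference was 0.14; of 19 canonical NF-κB and feedback genes 2 fell, Cxcl2 (-2.39) and Tnf (-0.88), and 0 rose; with single plates left out these calls were lost for Cxcl2 (5 of 6, up to 0.135) and Tnf (4 of 6, up to 0.154). The receptor gene Tnfrsf11a had 282, 216 and 243 CPM on day 3, against 233, 243 and 206 CPM on day 2 (log2 difference 0.12 ± 0.13, SE; edgeR adjusted p = 0.685). Spib had 159, 201 and 129 CPM on day 3, against 179, 224 and 148 CPM on day 2, with overlapping plates (log2 difference -0.18 ± 0.20, SE; edgeR adjusted p = 0.716). It was detected in 28.8 to 39.5% of day 3 cells and 33.3 to 39.7% of day 2 cells. Onecut2, the target of CSRM617, had 1367, 1099.8 and 1242 CPM on day 3, against 909, 1057 and 1039 CPM on day 2. The days were separate, but the difference of 0.30 ± 0.14 (SE) was not called (edgeR adjusted p = 0.25). The M cell chemokine genes Ccl9 and Ccl20 differed by 0.11 ± 0.22 and -0.07 ± 0.23 (SE; edgeR adjusted p = 0.859 and 0.923), and Id3, a BMP-responsive inhibitor of transcription, by -0.43 ± 0.19 (adjusted p = 0.231). Sox8, a transcription factor of M cell maturation, had 8 UMIs on day 3 and 3 UMIs on day 2 (ratio 2.59, counting interval 0.621 to 15.1), and Gp2, a receptor of mature M cells, had 0 UMIs on day 3 and 1 UMI on day 2, so both were too few to test.

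Of 10 tested early M cell genes 1 rose and 1 fell, and of 10 mature M cell genes 1 rose and 2 fell, with medians of 0.06 and 0.12. The falls of the mature list numbered 0 without day 2 replicate 2 and 1 without day 3 replicate 3 or day 2 replicate 3. The summed level of that list was lower on every day 3 plate, at 4641 to 5256 CPM on day 3 and 5962 to 6819 CPM on day 2, sums that hold the Tmsb4x levels given below. Clec2h, a lectin-like gene of early M cells, had 602, 722 and 535 CPM on day 3, against 357, 350.3 and 299 CPM on day 2 (log2 difference 0.88 ± 0.20 (SE), edgeR adjusted p = 0.00486). Serpinb1a, an inhibitor of neutrophil-type proteases, had 1139.7, 1225 and 865 CPM on day 3, against 1621, 2010.4 and 1817 CPM on day 2 (log2 difference -0.76 ± 0.17 (SE), edgeR adjusted p = 0.00674), a call lost without day 3 replicate 3 (adjusted p = 0.073). In the mature list Adgrd1 rose as given above, and Tmsb4x, an actin-sequestering peptide, fell, with 2469, 2864 and 2662 CPM on day 3, against 3825, 4378 and 3753 CPM on day 2 (log2 difference -0.58 ± 0.13 (SE), edgeR adjusted p = 0.00789; 0.0516 without day 2 replicate 2), as did Anxa5. AW112010, annotated as a lincRNA and among the genes that mark the M cell-like cluster below, had 59, 40.3 and 40.2 CPM on day 3, against 132, 144 and 101 CPM on day 2 (log2 difference -1.43 ± 0.23 (SE), edgeR adjusted p = 0.000152). The stem cell genes Lgr5 (-0.25) and Olfm4 (0.20) were not called (edgeR adjusted p = 0.524 and 0.624), and 0 calls were made among 14 Id and BMP genes and 13 Notch and secretory fate genes.

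Cells of the whole RANKL arm were clustered into 17 groups, and a cluster took a name only from at least 3 markers among its 50 genes of highest fold. The M cell-like cluster (Serpinb1a, Spib, Clec2h, Anxa5, Ccl9 and Ccl20) held 172 cells on day 3 and 171 cells on day 2. The enterocyte-like class joined a cluster led by Reg3b and Apoa4, with 189 day 3 and 53 day 2 cells, and one led by Fabp1, with 3 day 3 and 8 day 2 cells. Of the cells of a plate this class made up 22.1, 24.9 and 24.1% on day 3, against 10.5, 7.76 and 7.98% on day 2. The M cell-like share was 19.4 to 23.8% on day 3 and 23.2 to 26.7% on day 2. These shares depended on the clustering. At the coarser resolution of 0.5 the M cell-like share was 36.2, 37.9 and 30.9% on day 3, against 50.4, 50.4 and 47.5% on day 2, without overlap. The enterocyte-like share was then 36.2, 41.4 and 39.6% on day 3, against 18, 15.1 and 15.1% on day 2. The part of these shares in the all-cell differences was not tested. The remaining 446 day 3 and 466 day 2 cells formed the neither class, whose largest cluster was led by Id3 and Id1. That cluster held 230 day 3 and 207 day 2 cells. It had 2 M cell markers, Id3 and Spib, among its 50 genes, below the 3 needed for a name. The neither class is thus not a set of cells without M cell markers. These names were rebuilt from the counts and may differ from the submitters' own. Genes that rank among the 50 of highest fold in a cluster are left out of the values given for that class, since they mark the cluster. The clustering itself ran on 2000 variable genes, so other genes given for a class may also have shaped it. The class tests used counts summed per plate over the class and the 6 plates only; a plate held 54 to 62 M cell-like cells on day 3 and 53 to 62 on day 2, and 60 to 67 enterocyte-like cells on day 3 and 18 to 24 on day 2.

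In M cell-like cells 158 of 5218 genes were called (3.03%), 73 higher (1.4%) and 85 lower (1.63%) on day 3. Apart from the cluster's own defining genes, 72 were higher and 66 lower. The all-cell rises in the selenium carrier and a metallothionein were present here. Selenop had 105, 202 and 122 CPM on day 3, against 11.7, 25 and 18.7 CPM on day 2 (log2 difference 2.86 ± 0.35 (SE), edgeR adjusted p = 6.72e-08). Mt2 had 697, 363 and 629 CPM on day 3, against 133, 202 and 134 CPM on day 2 (log2 difference 1.82 ± 0.21 (SE), edgeR adjusted p = 1.17e-08). Sis transcripts were at 2442, 1534 and 2164 CPM on day 3, against 1227, 886 and 1081 CPM on day 2 (log2 difference 0.95 ± 0.17 (SE), edgeR adjusted p = 0.000179), so an enterocyte transcript was higher on day 3 even in the cluster named by M cell markers. Rnase1, a secreted ribonuclease, had 87.9, 78.8 and 60.8 CPM on day 3, against 19.5, 9.98 and 21.9 CPM on day 2 (log2 difference 2.18 ± 0.40 (SE), edgeR adjusted p = 0.000196). Under the coarser clustering, whose M cell-like cluster also had Id3 among its leading genes (283 day 3 and 345 day 2 cells), 64 genes were called. The calls of Sis and Rnase1 were then lost, and those of Selenop and Mt2 were not. In a plate-sorted library free RNA from other cells can add UMIs to a well, and its part in these values was not tested.

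The falls within M cell-like cells were led by Mrc1, the mannose receptor, with 27.1, 6.85 and 10.7 CPM on day 3, against 66.4, 84.8 and 96.9 CPM on day 2 (log2 difference -2.45 ± 0.41 (SE), edgeR adjusted p = 5.6e-05). Sprr1a, a small proline-rich protein of stressed epithelium, had 20.3, 34.2 and 21.5 CPM on day 3, against 113, 197 and 96.9 CPM on day 2 (log2 difference -2.44 ± 0.34 (SE), edgeR adjusted p = 1.24e-06). Over all cells it differed by -0.29 and was not called. Areg, the EGF receptor ligand amphiregulin, had 13.5, 6.85 and 25 CPM on day 3, against 66.4, 52.4 and 103 CPM on day 2 (log2 difference -2.26 ± 0.43 (SE), edgeR adjusted p = 0.000424). Each of these 3 was lower on every day 3 plate. Fos had 54.1, 47.9 and 85.8 CPM on day 3, against 246, 145 and 244 CPM on day 2 (log2 difference -1.73 ± 0.26 (SE), edgeR adjusted p = 6.66e-06). Cd44 had 267, 202 and 197 CPM on day 3, against 434, 651 and 591 CPM on day 2 (log2 difference -1.34 ± 0.19 (SE), edgeR adjusted p = 1.24e-06). S100a6 and Tmsb4x were lower by log2 differences of -1.11 and -1.04 (edgeR adjusted p = 4.06e-06 and 7.09e-05), and the transcription factor Foxa1 by -1.14 (adjusted p = 0.00159). Hspa5, the main chaperone of the endoplasmic reticulum, was lower by -0.85 (adjusted p = 0.000531). Under the coarser clustering the calls of Mrc1, Areg, Foxa1 and Hspa5 were lost. Of the 5 mature M cell genes that did not define the cluster, Adgrd1 rose, Tmsb4x fell and 3 were not called (median log2 difference 0.13). Onecut2 and Tnfrsf11a differed by -0.02 and 0.04 and were not called (adjusted p = 0.976 and 0.95).

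In enterocyte-like cells 118 of 3917 genes were called (3.01%), 30 higher (0.766%) and 88 lower (2.25%). Apart from the defining genes of its clusters, 23 were higher and 69 lower. Without the cluster led by Fabp1, a choice made after seeing the data, 61 were called. That cluster held 8 of the 61 day 2 cells and 3 of the 192 day 3 cells of the class, so the mix of clusters differed between the days. S100a6 and a keratin were lower by several fold. S100a6 had 288, 172 and 373 CPM on day 3, against 1902, 1665 and 1681 CPM on day 2 (log2 difference -2.65 ± 0.24 (SE), edgeR adjusted p = 5.73e-07). Ifi27l2b, an interferon-inducible gene, had 165, 189 and 198 CPM on day 3, against 761, 755 and 691 CPM on day 2 (log2 difference -2.0 ± 0.20 (SE), edgeR adjusted p = 1.81e-06). The keratin Krt18 had 30.6, 14.1 and 30.2 CPM on day 3, against 133, 106 and 318 CPM on day 2 (log2 difference -2.85 ± 0.42 (SE), edgeR adjusted p = 0.000263). None of the 3 overlapped between the days. The absorption lists held no called rise within this class, in contrast to all cells, a difference that was not tested. The clusters of this class took their names from absorption genes. Its cells on both days were thus picked for high levels of such genes, and leaving out the genes of highest fold does not undo that. A lack of rises within the class was therefore likely beforehand, and no conclusion is drawn from it. Of 16 brush border, sugar and peptide genes that did not define its clusters, 0 rose and 2 fell (median log2 difference -0.20), and of 12 such lipid genes 0 rose and 0 fell by edgeR (median -0.21). In M cell-like cells 4 of 16 such brush border genes rose and 0 fell, and in the neither class 3 of 15 rose and 0 fell. Slc15a1, the apical di- and tripeptide transporter, was too low over all cells to be tested there. In enterocyte-like cells it had 9.18, 8.46 and 8.24 CPM on day 3, against 61.9, 122 and 63.6 CPM on day 2 (log2 difference -3.20 ± 0.51 (SE), edgeR adjusted p = 0.000501). The class summed to 340871 to 399791 UMIs per plate on day 3 and 126012 to 148844 UMIs on day 2. These Slc15a1 values therefore rest on few UMIs per plate. Krt7 (-1.99), Anxa10 (-2.34) and the ERK phosphatase gene Dusp6 (-2.11) were lower too (edgeR adjusted p = 0.000123, 4.71e-05 and 0.000172). Among the rises, Mt2 had 1478, 1591 and 1411 CPM on day 3, against 230.0, 715 and 264 CPM on day 2 (log2 difference 1.87 ± 0.29 (SE), edgeR adjusted p = 0.000317). Mt1 had 1432, 1782 and 1612 CPM on day 3, against 522, 885 and 499.8 CPM on day 2 (log2 difference 1.33 ± 0.22 (SE), edgeR adjusted p = 0.000932). Both metallothioneins were higher on every day 3 plate.

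In cells of neither class 44 of 8047 genes were called (0.547%), 25 higher (0.311%) and 19 lower (0.236%). Within the cluster led by Id3 alone, a choice made after seeing the data, 12 were called. Adgrd1 had 61.8, 56 and 62.5 CPM on day 3, against 18.3, 7.3 and 13.8 CPM on day 2 (log2 difference 2.23 ± 0.30 (SE), edgeR adjusted p = 0.00053). Mt2 had 215, 283 and 236 CPM on day 3, against 119.8, 107 and 118 CPM on day 2 (log2 difference 1.08 ± 0.15 (SE), edgeR adjusted p = 0.000737). Both genes were higher on every day 3 plate. Fos had 77.6, 76.8 and 81.6 CPM on day 3, against 185, 161 and 166 CPM on day 2 (log2 difference -1.11 ± 0.16 (SE), edgeR adjusted p = 0.000737), and S100a6 had 717, 602 and 609 CPM on day 3, against 1157, 1339 and 1115 CPM on day 2 (log2 difference -0.90 ± 0.13 (SE), edgeR adjusted p = 0.00121). Jun was lower in all 3 classes, by -1.25 in M cell-like cells, -1.08 in enterocyte-like cells and -1.08 in the neither class (edgeR adjusted p = 0.00321, 0.0146 and 0.0015). The M cell-like and the enterocyte-like call of Jun were each lost in 2 of the 6 fits that left out a plate.

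**Figure D3:**
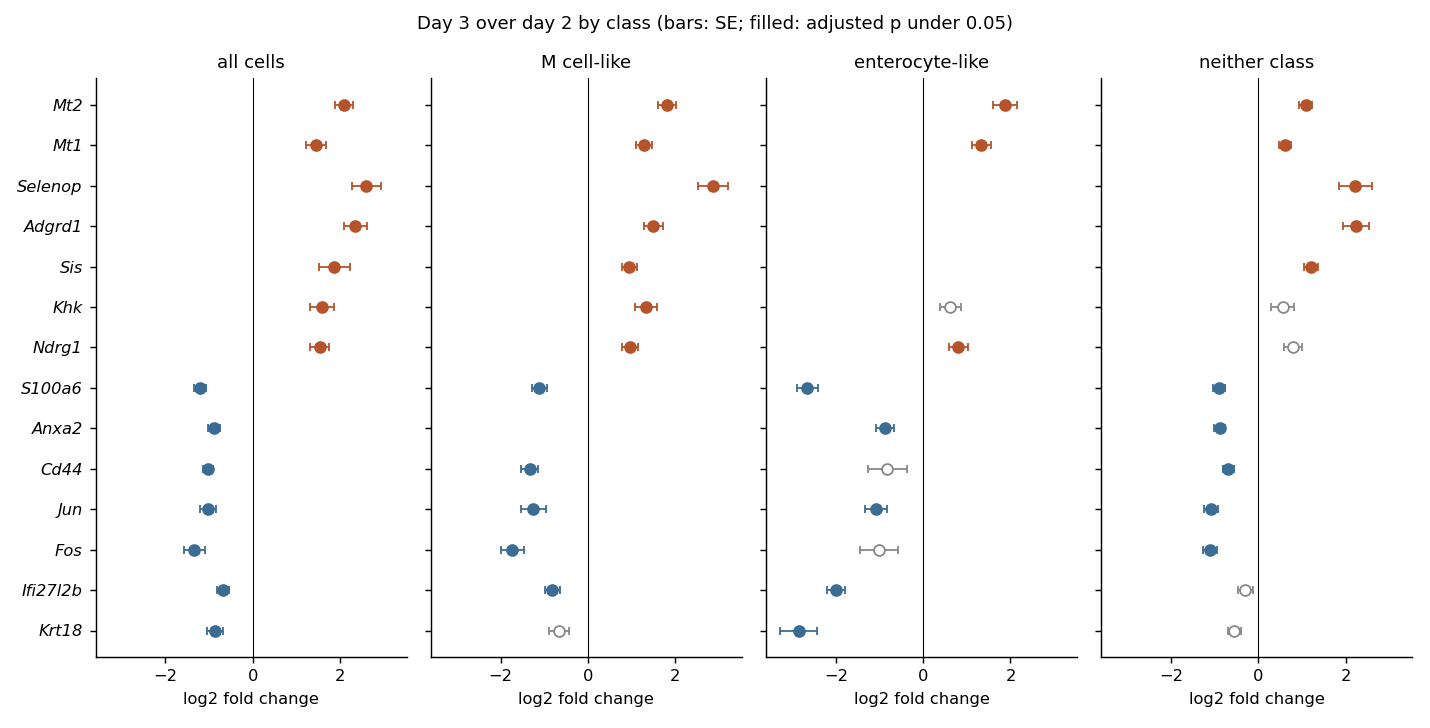
Log2 difference, day 3 over day 2 (horizontal axes), with its SE (bars), of 14 genes over all cells and within 3 classes; filled points passed an edgeR adjusted p of 0.05, and a gene that defines a class is left out of that panel. Mt2 and Mt1 lie right of 0 and S100a6 and Jun left of 0 in each of the 4 panels.

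The other RANKL days place this step within the course; they share the day 3 and day 2 plates and are given as values without a test. Mean Sis levels on days 0 to 5 were 2708, 1571, 1208, 4409, 1679 and 2865 CPM, so day 3 held the highest mean of these days, although the day 4 plates ranged from 363 to 3139 CPM. Mt2 was at 2361, 502, 146, 621, 499.6 and 636 CPM on days 0 to 5, and its day 3 mean lay far below that of day 0. S100a6 was at 339, 1201, 1349.8, 581, 227 and 234 CPM and Anxa10 at 8.53, 192, 160.1, 46.1, 18.7 and 45.3 CPM on those days, both low before RANKL, high on days 1 and 2 and lower from day 3. Cd44 stood at 625 CPM on day 1 and between 282 and 351 CPM in the means of days 3 to 9. Fos was already lower on day 2, at 168 CPM, than on day 0, at 568 CPM, before it reached 66.1 CPM on day 3. The mean of Adgrd1 was highest on day 3, at 215 CPM, and 4.75 CPM by day 9. Spib was at 259, 184, 163 and 39 CPM on days 1 to 4.

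**Figure D4:**
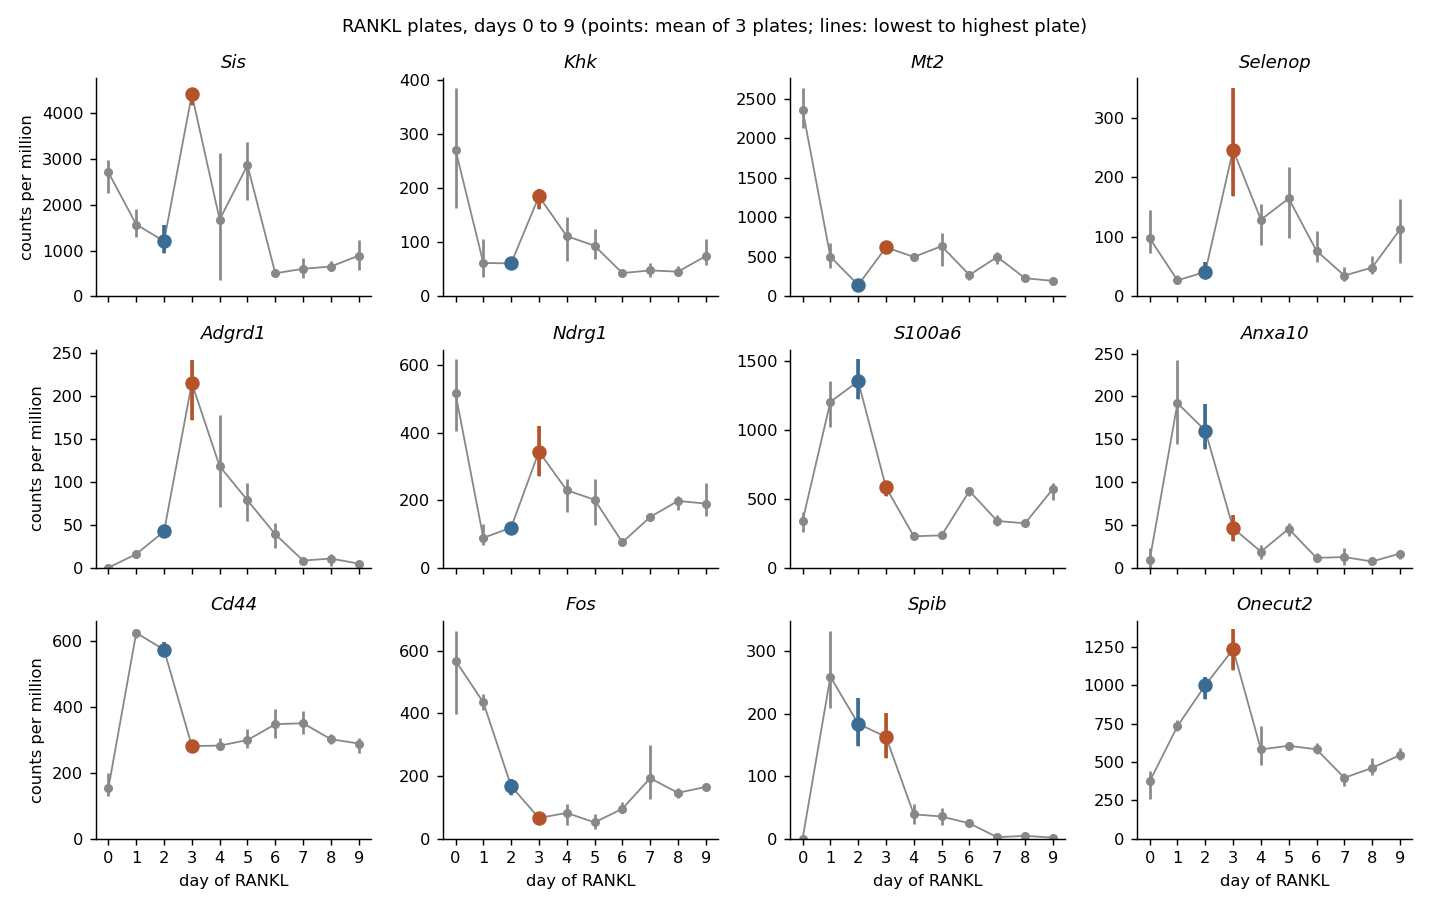
Mean counts-per-million (vertical axes, from 0) of 12 genes on days 0 to 9 of RANKL (horizontal axes); points are means of 3 plates, lines span the lowest to the highest plate, and day 3 is orange and day 2 blue. Sis, Selenop, Adgrd1 and Onecut2 have their highest mean on day 3, and the Sis plates of day 4 spread widely.

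The same day step was also taken with CSRM617 added to RANKL, on 2 plates per day. Those plates held fewer cells, 92 and 103 on day 3 and 178 and 197 on day 2, and 324061 to 328749 UMIs on day 3 and 424968 to 750116 UMIs on day 2. The arms were run as separate experiments, so arm and run cannot be told apart, and the tests used the 8766 genes that both tables hold and that passed the filter. With CSRM617, 174 genes were called (1.98%), 149 higher (1.7%) and 25 lower (0.285%) on day 3. In the RANKL arm 344 of these genes were called (3.92%), 246 higher (2.81%) and 98 lower (1.12%). Of the 247 all-cell RANKL rises tested in both arms, 227 (91.9%) had a value above 0 with CSRM617, 71 were called higher there, and their median log2 difference was 0.90. Over all genes higher on day 3 in the RANKL arm, called or not, 60.6% were above 0 with CSRM617. Of the 176 RANKL falls, 115 (65.3%) were below 0 with CSRM617, beside 59.6% of all genes lower on day 3, and 4 were called lower, with a median of -0.23.

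Sis and Mt2 rose with CSRM617 as well, while several other rises of the RANKL arm were not called there. Sis had 5981 and 5357 CPM on day 3, against 634 and 707 CPM on day 2 with CSRM617 (log2 difference 3.08 ± 0.47, SE; edgeR adjusted p = 0.000118). Mt2 had 3309 and 3444 CPM on day 3, against 1349.5 and 1306 CPM on day 2, with levels on both days above those of the RANKL arm and a log2 difference of 1.35 ± 0.29 (SE; adjusted p = 0.00632). The difference between the arms' steps was not called for Sis or Mt2 (RANKL minus RANKL with CSRM617: -1.18 ± 0.57 and 0.77 ± 0.37, SE; edgeR adjusted p = 0.713 and 0.713). The CSRM617 steps of Khk, Fth1, Slc30a10 and Rdh7 were above 0 but not called (1.31, 0.79, 1.41 and 1.67; edgeR adjusted p = 0.124, 0.113, 0.136 and 0.157), and that of Otc was -0.80 (adjusted p = 0.615). S100a6 had 343 and 335 CPM on day 3, against 419.5 and 637 CPM on day 2 and its CSRM617 step was not called (adjusted p = 0.113). Anxa10 had 75.3 and 53.6 CPM on day 3, against 35.4 and 37.8 CPM on day 2, beside a RANKL step of -1.75; the difference of -2.54 ± 0.58 (SE) did not pass (adjusted p = 0.0753). Ccl20, the chemokine that draws immune cells to follicle epithelium, had 4129 and 4449 CPM on day 3, against 1549 and 1245 CPM on day 2 (log2 difference 1.62 ± 0.32, SE; adjusted p = 0.00286), while its RANKL step was -0.03. The difference of -1.65 ± 0.40 did not pass either (adjusted p = 0.0915).

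For 4 genes (0.0456%) the steps differed by edgeR's interaction test, all of them lower in the RANKL arm than in the arm with CSRM617, while 604 genes had an unadjusted p under 0.05 and DESeq2 called 16. Car8, a carbonic anhydrase-related protein without enzyme activity, had 280.3, 234 and 192 CPM on day 3, against 304, 269 and 246 CPM on day 2, with RANKL alone. With CSRM617 it had 489 and 693 CPM on day 3, against 195 and 139 CPM on day 2. Its plates overlapped between days in the RANKL arm and were apart with CSRM617 (difference of steps -2.07 ± 0.29, SE; edgeR adjusted p = 0.000214). AW112010 had 57.9, 39.1 and 39.5 CPM on day 3, against 126, 137 and 97.2 CPM on day 2, with RANKL alone. With CSRM617 it had 128 and 429 CPM on day 3, against 134 and 99.6 CPM on day 2 (difference -2.70 ± 0.45, SE; adjusted p = 0.00322); the CSRM617 value rests on 1 of the day 3 plates, and the call was lost without that plate or without day 2 replicate 2 of that arm. Ubd, the ubiquitin-like modifier FAT10, had 119, 134 and 145 CPM on day 3, against 94, 69.2 and 101 CPM on day 2, with RANKL alone. With CSRM617 it had 248 and 214 CPM on day 3, against 30.3 and 21.4 CPM on day 2 (difference -2.63 ± 0.49, SE; adjusted p = 0.0179). Mxd1, a repressor that competes with MYC for MAX, had 148, 151 and 142 CPM on day 3, against 147, 126 and 125 CPM on day 2, with RANKL alone. With CSRM617 it had 229.6 and 335 CPM on day 3, against 85.9 and 65.5 CPM on day 2 (difference -1.79 ± 0.36, SE; adjusted p = 0.0407).

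**Figure D5:**
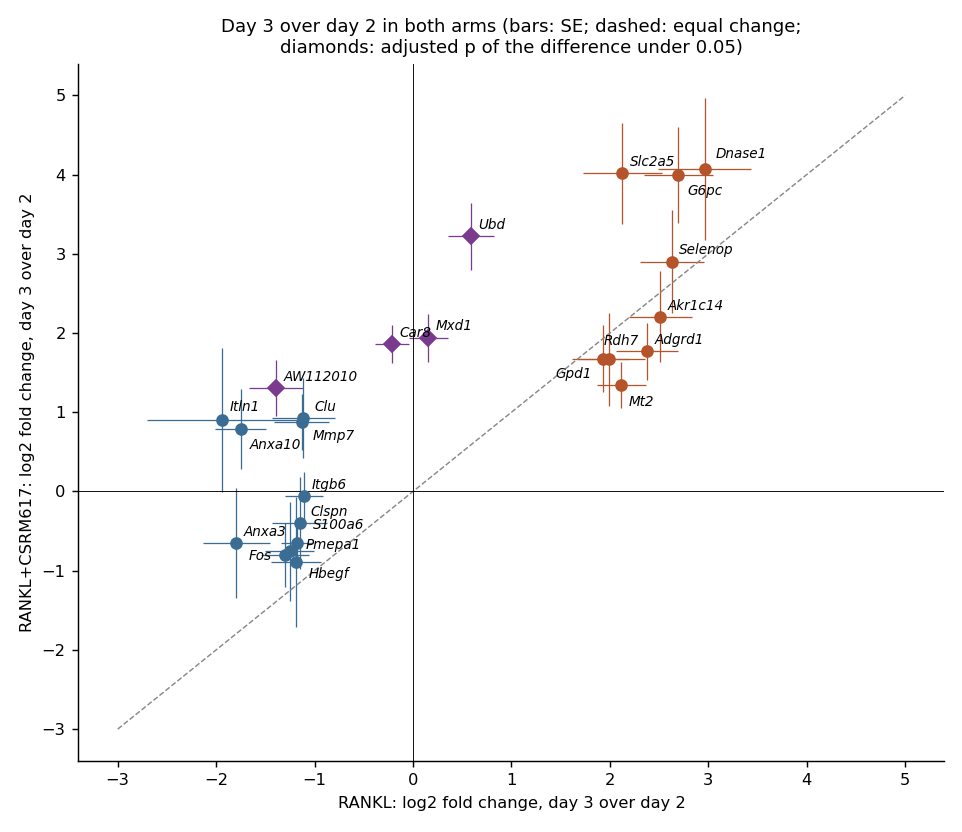
Log2 difference, day 3 over day 2, in the RANKL arm (horizontal axis) and in the RANKL with CSRM617 arm (vertical axis), with SE bars; orange and blue points are the all-cell rises and falls of largest fold tested in both arms, purple diamonds the 4 genes whose steps differed, and the dashed line marks equal steps. The rises lie above 0 on both axes, while the falls spread on either side of 0 on the vertical axis.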

How the data were processed

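Per the labels' protocols, single organoid cells were sorted into 384-well plates and sequenced with a modified CEL-Seq2 protocol. Per the submitters' processing notes the tools included kallisto, bustools and Seurat 3.1.5 with genome build GRCm38; no source used here says which tool did which step. The deposited tables used hold raw UMI counts per gene and cell, made by the authors without normalization; natural-log tables were not used here. Counts were summed per plate over the wells that held at least 1000 UMIs. Plates were read from the plate names in the labels, and 20538 of 21099 gene symbols matched the GENCODE M21 annotation.

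The main test was edgeR 4.0.16 (R 4.3.3; TMM scaling, filterByExpr, quasi-likelihood, Benjamini-Hochberg, adjusted p under 0.05, two-sided), over the 30 RANKL plates for all cells and over the 6 plates within classes. For the difference of the day steps it used the plates of both arms on the days that both arms cover, without the later RANKL days. CPM values use TMM-scaled library sizes. Classes came from Leiden clustering (scanpy 1.11.5; 2000 variable genes, 30 components, 15 neighbours, resolution 1) of the kept RANKL cells. No doublet caller was run, since wells were sorted to hold single cells. The tests were checked on simulated counts. Alternatives were DESeq2 1.42.0, no TMM, no filter, fits of the compared plates only, other UMI minimums, cells thinned to 1000 UMIs, resolution 0.5, the top gene left out, each plate left out, and a replicate block. Counting intervals cover counting error only.

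Genes were named by rule: the 12 largest rises and 12 largest falls among called genes whose days did not overlap and whose mean log2 CPM was at least 5, up to 4 called members of each of 51 lists, 20 genes of prior interest, 6 rises and 6 falls per class, and 4 genes in each direction between arms; other list members are named where a list is described. A gene that the rule names is not reported here, though counts over lists include it. The members and lists were chosen with earlier results of these data known.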

Additional observations from a re-analysis of the deposited data

Results flagged for a closer look

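The day 3 against day 2 step differed between the RANKL arm and the RANKL with CSRM617 arm for 4 genes by edgeR's interaction test, and these were taken for a closer look for that reason. Each difference is the RANKL step minus the step with CSRM617, on the log2 scale. It was -2.07 for Car8, where the step was -0.21 with RANKL and 1.86 with CSRM617, and the call held in 14 of 14 alternative fits. It was -2.70 for AW112010, with steps of -1.39 with RANKL and 1.31 with CSRM617, called in 12 of 14. For Ubd it was -2.63, with steps of 0.59 with RANKL and 3.22 with CSRM617, called in 7 of 14. For Mxd1 it was -1.79, with steps of 0.16 with RANKL and 1.94 with CSRM617, called in 5 of 14. The Mxd1 call was lost without any single RANKL plate of either day, and the Ubd call without any single plate with CSRM617. Cells per plate moved with arm and day (92 to 103 on day 3 and 178 to 197 on day 2 with CSRM617), and their part in these differences was not tested.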

How the results depend on the processing

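The number of genes called between day 3 and day 2 over all cells was 451, and stayed within 1.5 times of that with DESeq2 (447), without TMM (370, with 252 higher and 118 lower), without the filter (565), with the 6 plates alone (496), with all wells (459), with a minimum of 2000 UMIs (462) and without CT010467.1 (445). Thinning cells to 1000 UMIs gave 139 calls of 6472 genes tested, and leaving out 1 plate gave 220 to 387. Within M cell-like cells the 158 calls became 69 with DESeq2, 64 at resolution 0.5 and 99 to 172 with a plate left out. Within enterocyte-like cells the 118 calls became 198 without the filter, 61 without the cluster led by Fabp1 and 61 to 120 with a plate left out. In cells of neither class the 44 calls became 134 without the filter, 12 within the cluster led by Id3 alone and 16 to 66 with a plate left out. The 4 genes called between arms became 16 with DESeq2, 20 with only the 10 plates of the 2 days, 8 with thinned cells and 1 to 4 with a plate left out. The cause of these changes was not tested, except that thinning and leaving out plates use fewer UMIs or samples by construction. The labels do not say what the replicate numbers mean, and the plates were not paired in the main test. Deviations of same-numbered plates correlated at -0.029, -0.016 and 0.030 across genes. Counting noise in low-count genes pulls such values towards 0, so they cannot show whether same-numbered plates shared a culture. A fit with the replicate number as a block gave 396 calls over all cells, 142 in M cell-like, 80 in enterocyte-like and 64 in neither-class cells. Of the named genes over all cells, 1387 values kept their side of the threshold, 214 lost it, 13 gained it and 8 changed sign. Those that changed sign were uncalled genes with a plate left out, where the log2 difference ran from -0.334 to 0.0014 for Spib (above 0 without day 2 replicate 2), -0.064 to 0.246 for Ccl9 (below 0 without day 2 replicate 1), -0.108 to 0.0379 for Ccl20 (above 0 without day 2 replicate 1) and -1.74 to 0.79 for Muc2 (below 0 without day 2 replicate 2, at -0.39, or day 3 replicate 1). Muc2 was also below 0 under the block (-0.15) and with thinned cells (-0.78), and the called fall of Ly6a was 0.14 with thinned cells. Depth limits low-count members: Sox8, Gp2 and Chga had 8, 0 and 10 UMIs on day 3 and 3, 1 and 35 UMIs on day 2 and were not tested.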
